A study of Mus musculus with 24 samples.

Results

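The genes described here make cholesterol in the liver cell or sense and move it, and most of them are switched on together by the transcription factor SREBP2. They were chosen by name: 30 symbols of cholesterol synthesis, its regulators, sterol uptake and the supply of acetyl groups, which come to 28 genes once old and new names are joined. Of these, 27 had a spot on the array and 1, Acat2, had none. The 27 were among 18653 genes compared. All 27 were well above background on 24 of 24 arrays and saturated on none, so none entered through a filter on low signal.

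Cholesterol is built from acetyl-CoA through mevalonate, farnesyl diphosphate, squalene and lanosterol by a chain of enzymes in the cytosol and endoplasmic reticulum. SREBP2 is made as a membrane protein of the endoplasmic reticulum. Its escort SCAP carries it to the Golgi for cleavage when membrane sterol is low, and the INSIG proteins hold the complex back when sterol is plentiful. Cleaved SREBP2 enters the nucleus, where it acts on sterol regulatory elements together with NF-Y and Sp1, so that the whole pathway can rise or fall in step.

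The study compared livers of young mice that ate, after weaning, glucose alone or glucose and galactose in equal parts as the monosaccharide of a semi-synthetic diet. All mice were labelled C57BL/6JRcc, an inbred laboratory strain without any engineered allele named in the labels, and female, and each was housed alone. In both groups the diet ran from 3 to 6 weeks of age, with 32% of energy from monosaccharide, 32% from starch, 20% from protein and 16% from fat. The monosaccharide was glucose for the 12 GLU mice and glucose with galactose for the 12 GLU+GAL mice. The mice were killed at postnatal day 42, deprived of food and in the light phase, and the right liver lobe was taken. The sources used here do not say how long food was withheld. Each value below is the log2 ratio of a mouse's RNA (Cy5) over a pool of the RNA of all mice (Cy3) on 1 array per mouse, so a value of 0 is the pool. Bulk liver RNA was measured, in which fewer cells of a type and less RNA per cell cannot be told apart.

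Signal well above background was found in Cy5 for 46.6% to 51.3% of the spots, depending on the array. The arrays lay on 3 slides, with 4 mice of each diet on every slide. All 9 hepatocyte markers, among them Alb, Ttr and Hnf4a, were well above background on 24 of 24 arrays. Of the bile duct markers Krt19, Sox9 and Spp1 were so on 24 arrays, Krt7 on 4 and Epcam on 0. Of the adrenal markers Hsd3b1 and Cyp21a1 were so on 24, Star on 7, Cyp11b1 on 2 and Cyp11a1 on 0. In Cy3, the channel of the pool, GLU+GAL mouse 4 was the array least like the rest, its median correlation with them being 0.977. GLU+GAL mouse 12 had Ddx3y and Eif2s3y, both Y-linked, well above background and Xist not, the reverse of the other 23 arrays and against its label. Of 2 further Y-linked genes Kdm5d was well above background on 24 arrays and Uty on 0. No member passed the adjusted threshold without either array, and 232 and 216 pairs of members were correlated past it without mouse 4 and mouse 12, against 232 with all. Between the diets 16 members had a higher mean on GLU+GAL with all arrays, 17 without mouse 4 and 8 without mouse 12.

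Upstream sequences were available for 23 of the 27 members in RefSeq (GRCm38.p6), as windows from 250 bases before to 50 after the start of transcription. There was no window for Fdps, Fdft1, Sqle and Stard4, although Sqle and Fdps followed the other enzymes at r = 0.96 each. The 160 bases before the start are shown for 4 enzymes. These followed the other enzymes most closely among those with a window whose stretch overlaps no annotated gene. Mylip, which ran opposite to them, and Scap, which followed them little, are also shown. Scap had 2 windows, and the stretch is from the first. Capitals mark the NF-Y box CCAAT, which reads ATTGG on the other strand, and the sterol regulatory element TCACNCCAC. The stretches lie at chr5:4104698-4104857, minus strand (Cyp51), chr13:119690191-119690350, plus strand (Hmgcs1), chr13:8885446-8885605, plus strand (Idi1), chr8:122443423-122443582, minus strand (Mvd), chr13:45389582-45389741, plus strand (Mylip) and chr9:110333128-110333287, plus strand (Scap). They are written 5′ to 3′ on the strand of the gene.
Cyp51: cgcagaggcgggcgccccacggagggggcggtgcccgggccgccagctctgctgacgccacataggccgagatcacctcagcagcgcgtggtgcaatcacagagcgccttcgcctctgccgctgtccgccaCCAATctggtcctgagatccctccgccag
Hmgcs1: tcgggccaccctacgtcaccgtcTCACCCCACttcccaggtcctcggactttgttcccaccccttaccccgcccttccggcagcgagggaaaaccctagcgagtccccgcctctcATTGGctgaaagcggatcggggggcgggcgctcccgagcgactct
Idi1: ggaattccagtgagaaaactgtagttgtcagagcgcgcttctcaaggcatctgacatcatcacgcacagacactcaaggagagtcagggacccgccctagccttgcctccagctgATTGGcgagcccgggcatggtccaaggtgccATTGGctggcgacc
Mvd: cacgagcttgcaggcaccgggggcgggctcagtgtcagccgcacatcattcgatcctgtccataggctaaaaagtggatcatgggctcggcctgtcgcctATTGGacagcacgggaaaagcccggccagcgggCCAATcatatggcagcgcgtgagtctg
Mylip: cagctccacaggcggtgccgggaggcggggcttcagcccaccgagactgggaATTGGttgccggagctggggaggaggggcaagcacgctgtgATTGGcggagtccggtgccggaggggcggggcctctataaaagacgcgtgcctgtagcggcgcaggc
Scap: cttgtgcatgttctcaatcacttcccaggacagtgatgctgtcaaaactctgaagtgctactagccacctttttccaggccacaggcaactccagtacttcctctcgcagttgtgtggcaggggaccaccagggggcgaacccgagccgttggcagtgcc
Over the whole windows and both strands, CCAAT was found in 21 of 23 members (91.3%) and in 42.1% of the 11022 compared genes with a window. The 2 members without it were Scap and Aacs. The GC box GGGCGG, a site of the Sp1 type, was in 20 of 23 members (87.0%) against 61.4% of those genes. The form TCACNCCAC was in 1 of 23, Hmgcs1, as TCACCCCAC from base -137 to -129, against 1.5% of those genes. Many functional sterol regulatory elements are spelled otherwise, and a missing match says only that these letters were not in the window. Mylip, which ran opposite to the enzymes with the main scaling, also held CCAAT 3 times. Whether the box bears on the course of any member was not tested.

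The levels of the pathway differed widely from mouse to mouse within each diet, and the enzymes moved as a block. Over the 17 enzymes from Hmgcs1 to Dhcr7 other than Ggps1, the mean log2 ratio per mouse ran from -0.86 to 0.62 on GLU and from -0.82 to 0.53 on GLU+GAL. Its mean was -0.13 ± 0.49 (SD, n = 12) on GLU and -0.10 ± 0.35 (SD, n = 12) on GLU+GAL. The ranges overlapped almost entirely. The highest mice were GLU 8, GLU+GAL 12 and GLU 10, and the lowest GLU 7, GLU+GAL 8 and GLU 6. In GLU 8 and in GLU+GAL 12, 17 of 17 enzymes were among the 6 highest of the 24 values of that gene, and in GLU 6 17 of 17 were among the 6 lowest. Ggps1, which is not counted among the 17, had its lowest GLU value in GLU 8 (-1.13).

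**Figure D1:**
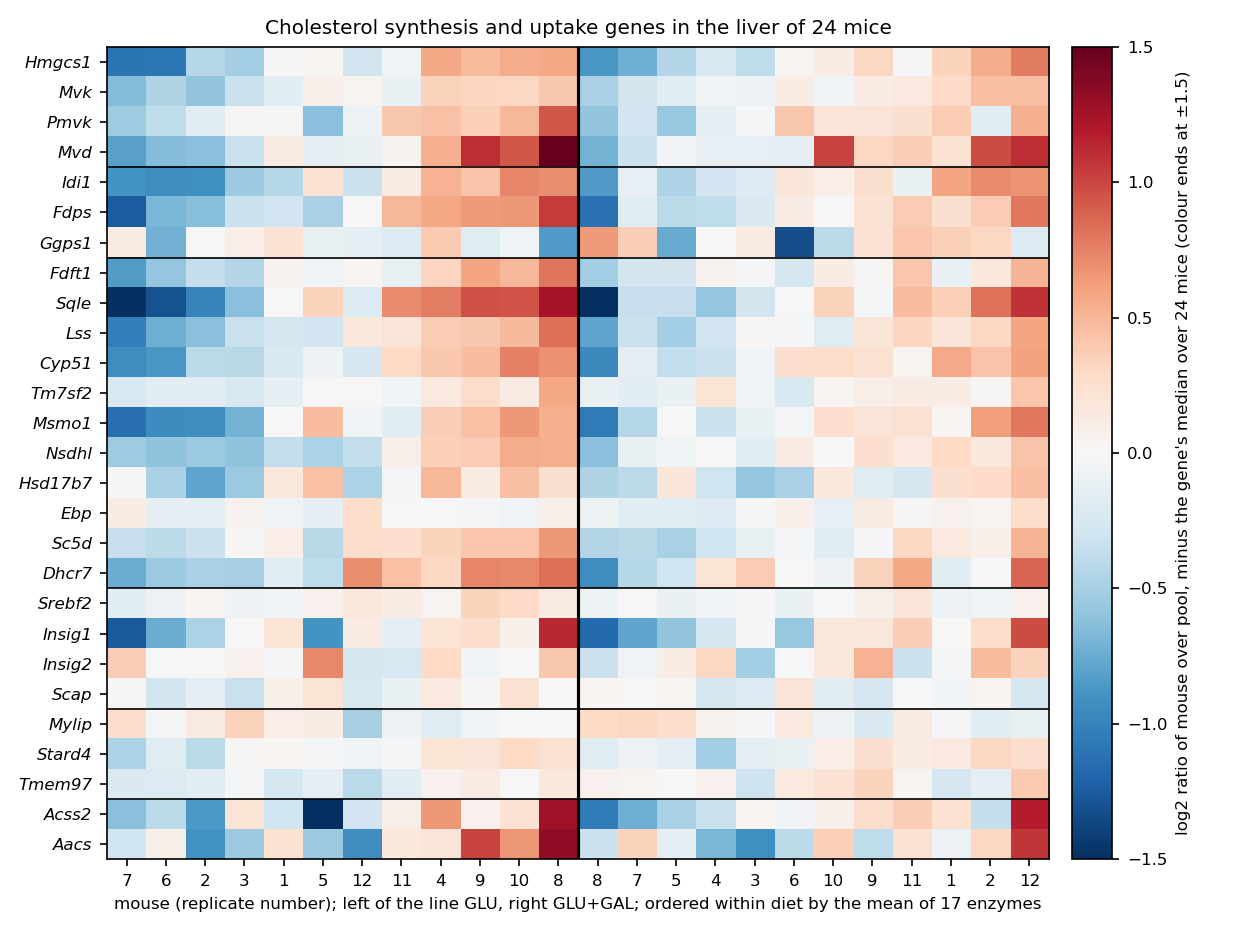
Log2 ratio of each of the 27 genes (rows, grouped by role between the lines) in each of the 24 mice (columns), relative to the gene's median over the mice, with red for higher and blue for lower. Within each diet mice are ordered by the mean of 17 enzymes, so the shift of enzyme rows from blue to red follows from that order. Over all 24 mice Ggps1, Insig2, Scap and Mylip had the lowest r with the enzymes. Within a diet Ebp (r = 0.13 on GLU) and Tmem97 (0.24 on GLU+GAL) also followed little. Scap had an r of 0.51 on GLU and Insig2 of 0.49 on GLU+GAL.

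The largest spread was that of Sqle, squalene epoxidase, which oxidises squalene at a rate-limiting step of the sterol branch. Its log2 ratio was -2.24 at the lowest, -0.26 at the median and 0.81 at the highest on GLU, and -1.99, -0.45 and 0.66 on GLU+GAL. The highest and lowest mouse differed 8.29-fold. The SD between mice within a diet was 0.86, the 50th largest of 18653 genes. Low values were found on both diets, in GLU 7, GLU+GAL 8 and GLU 6.

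Mvd, which decarboxylates mevalonate diphosphate to the first isoprenoid unit, was next among the enzymes with an SD of 0.68. It ranged from -0.94 through a median of -0.16 to 1.52 on GLU and from -0.84 through -0.04 to 0.98 on GLU+GAL. Fdps, which makes farnesyl diphosphate, ranged from -1.43 through -0.32 to 0.87 on GLU and from -1.31 through -0.13 to 0.61 on GLU+GAL, with an SD of 0.61. Both were lowest in GLU 7 and GLU+GAL 8 and highest in GLU 8 and GLU+GAL 12, as Sqle was.

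The enzymes that feed acetyl units into lipid synthesis varied as much. Acss2, the cytosolic acetyl-CoA synthetase, ranged from -1.99 through -0.45 to 0.94 on GLU and from -1.40 through -0.33 to 0.84 on GLU+GAL, a 7.62-fold range in all. Aacs, which activates acetoacetate, ranged from -0.70 through 0.35 to 1.56 on GLU and from -0.69 through 0.11 to 1.31 on GLU+GAL. Insig1, the sterol-regulated anchor of the SCAP complex, ranged from -0.99 through 0.31 to 1.40 on GLU and from -0.91 through 0.24 to 1.24 on GLU+GAL. GLU 8 and GLU+GAL 12 were the highest mice of their diets in all 3 genes, while the lowest mouse differed, being GLU 5 for Acss2, GLU 12 for Aacs and GLU 7 for Insig1.

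**Figure D2:**
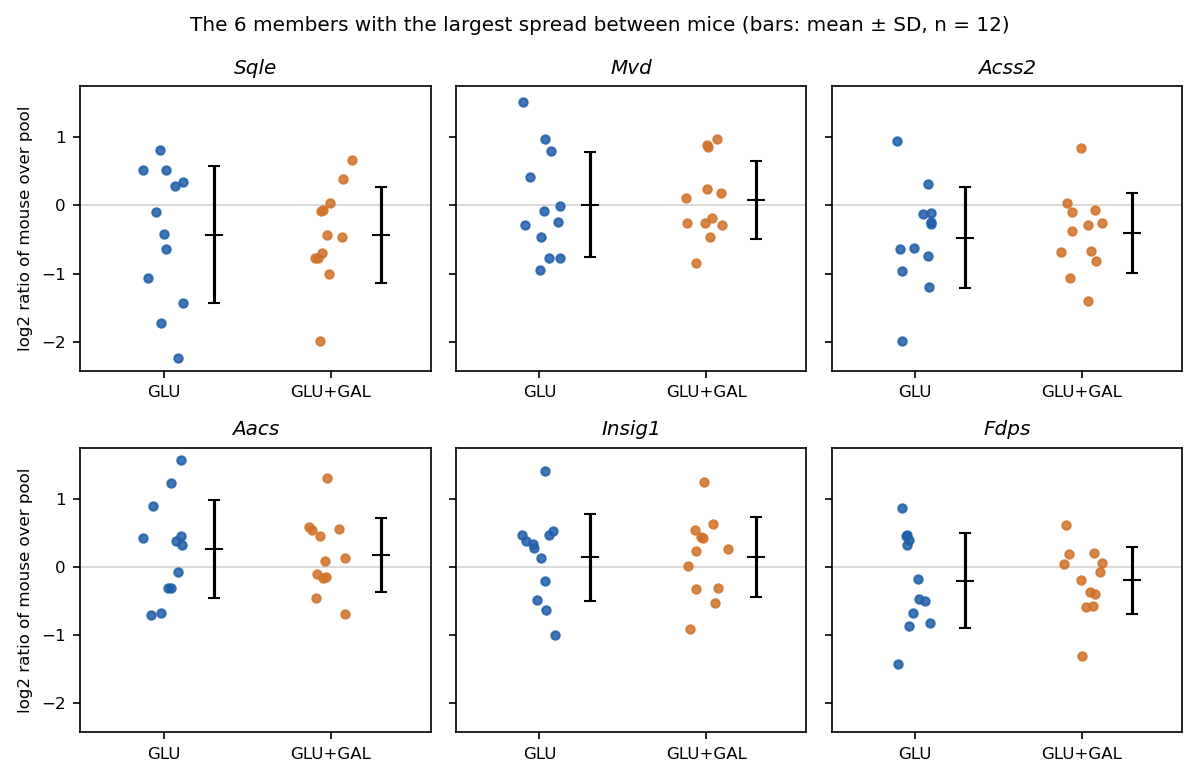
Log2 ratio of mouse over pool for the 6 genes with the largest SD between mice, 1 point per mouse, with mean ± SD (n = 12 per diet) beside the points. Mice of the 2 diets cover nearly the same range in each gene, and Sqle reaches -2.24 on GLU and -1.99 on GLU+GAL.

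The median SD between mice was 0.42 over the members and 0.17 over all genes compared. Of the 27, 18 had an SD above the 95th percentile of all genes and 10 above the 99th. The quietest members were Srebf2, the gene of SREBP2 itself (SD 0.12), Ebp, a sterol isomerase (0.13), and Scap (0.17). The spread was larger on GLU than on GLU+GAL in 23 of 27 members, against 36.6% of all genes. This is a count over genes that mostly rose and fell together, so they are not independent results, and it was not tested. The enzyme mean alone had an SD of 0.49 on GLU and 0.35 on GLU+GAL. An SD of a log2 ratio reads low for dim probes, and the mean Cy5 signal of Mvd (437) and Mylip (582) was far below that of Ebp (54157).

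Between mice the enzymes rose and fell together. Over the 351 pairs of members the median Pearson r was 0.58, against 0.008 over all pairs of genes. Such closeness was not particular to these genes. On the same arrays the median was 0.69 for 14 lipogenic genes known as SREBP1 targets and 0.84 for 9 Kupffer cell markers. In the remaining lists of related genes and markers it was 0.3135 (skeletal muscle) or lower. By a 2-sided permutation test of each pair (100000 resamples of the 24 mice), 232 pairs passed an adjusted p of 0.05 over the 351, 216 of them positive and 16 negative. That is 66.1% of the pairs, while 12.5% of all gene pairs had an r at least as far from 0 as the weakest of these (0.44). An r above 0.7 was reached by 133 member pairs (37.9%), against 0.535% of all gene pairs. These genes were put on 1 list for their known shared control and with earlier results of these data known, so the counts describe the list.

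The closest pair was Fdps with Lss, the synthase that folds squalene epoxide into lanosterol, at r = 0.97 and Spearman's rho = 0.97 over 24 mice. The permutation p was 1e-05, the smallest that 100000 resamples can give. The r was 0.96 without the 2 mice farthest from the median of Fdps, and 0.98, 0.97 and 0.97 within slides 1, 2 and 3. Idi1, which interconverts the isoprenoid units, followed Cyp51, the lanosterol demethylase, at r = 0.96, and Mvk, mevalonate kinase, at 0.95.

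Among the 17 enzymes all 136 pairs had an r above 0, with a median of 0.80, and 121 passed the adjusted permutation threshold. These counts leave out Ggps1, whose r with the other members ran from -0.22 to 0.06 and of whose 26 pairs 0 passed. With Ggps1 counted, not all enzyme pairs would be above 0. Of the 17, the 2 that followed least, picked out after their values were seen, were Ebp and Hsd17b7, a keto-sterol reductase. All 105 pairs of the other 15 passed, with r from 0.60 (Pmvk with Msmo1) to 0.97. Ebp and Hsd17b7 had an r of 0.10 with each other (permutation p = 0.63). Ebp was closest to Sc5d, the desaturase that acts after it, at r = 0.62 (adjusted permutation p = 0.0024).

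**Figure D3:**
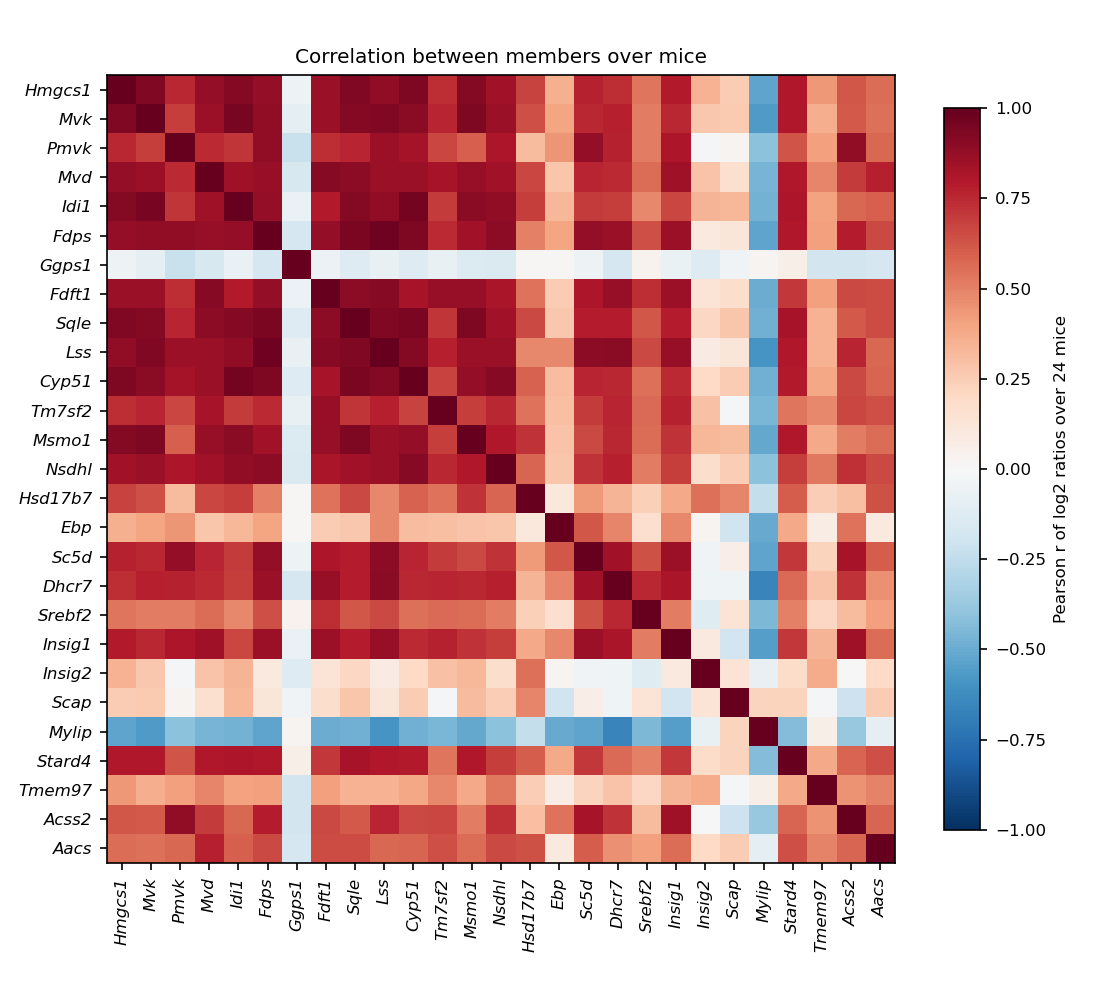
Pearson r over 24 mice for every pair of the 27 genes, in pathway order, from blue (negative) through white (0) to red (positive). The block of enzymes from Hmgcs1 to Dhcr7 is red except for Ggps1 and, less so, Ebp and Hsd17b7, and Mylip is the blue row.

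The 15 enzymes other than Ebp and Hsd17b7 ordered the mice alike, with a Spearman's rho of 0.81 to 0.97 with the mean of the other enzymes, and differed in the size of their swing. For Ebp and Hsd17b7 the rho was 0.40 and 0.63. Per unit of the mean log2 ratio of the other enzymes, Sqle moved by 2.05, Mvd by 1.5, Fdps by 1.39, Msmo1, a methylsterol oxidase, by 1.25, Idi1 by 1.25 and Hmgcs1, the cytosolic HMG-CoA synthase, by 1.24. Cyp51 moved by 1.15, Lss by 1.10 and Dhcr7, which reduces dehydrocholesterol to cholesterol, by 1.07. Below these stood Fdft1, squalene synthase, at 0.88, Nsdhl, a sterol dehydrogenase, at 0.83, Pmvk, phosphomevalonate kinase, at 0.79, Mvk at 0.73, Sc5d at 0.67, Hsd17b7 at 0.56, Tm7sf2, a sterol reductase, at 0.38 and Ebp at 0.11. Sqle and Lss tracked the other enzymes equally closely (r = 0.96 each), with slopes of 2.05 and 1.10. The first principal component of the 27 genes held 73.9% of their variance, and 61.8% once each gene was scaled to the same variance.

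The regulators did not share 1 pattern. Insig1, itself a target of SREBP2, followed the mean of the enzymes at r = 0.85 with a slope of 1.21 and was closest to Lss (r = 0.87, rho = 0.83, adjusted permutation p = 4.0e-05). Srebf2 followed at r = 0.63 with a slope of 0.19, so mice with high enzyme RNA had slightly higher Srebf2 RNA. Its closest member was Dhcr7 at r = 0.75 (rho = 0.75, adjusted permutation p = 0.00012), and 0.86, 0.65 and 0.66 within slides 1, 2 and 3. Its r with the enzymes was 0.79 within GLU and 0.42 within GLU+GAL, a difference that was not tested.

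Insig2, the INSIG form that is not driven by SREBP2 in liver, and Scap stood outside the block. Insig2 ranged from -0.36 through -0.09 to 0.63 on GLU and from -0.62 through -0.04 to 0.42 on GLU+GAL. Its r with the enzymes was 0.22, and 1 of its 26 pairs passed, that with Hsd17b7 (r = 0.55). Within GLU its r with the enzymes was 0.02 and within GLU+GAL 0.49, a difference that was not tested, and on slide 2 it was -0.46. Scap ranged from -0.44 through -0.10 to 0.12 on GLU and from -0.36 through -0.12 to 0.09 on GLU+GAL. Its r was 0.21, its 1 passing pair also was with Hsd17b7 (r = 0.49), and its sign turned between diets, at 0.51 within GLU and -0.29 within GLU+GAL, a difference that was not tested.

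Mylip, the ubiquitin ligase that marks lipoprotein receptors for breakdown and is known as a target of the sterol sensor LXR, ran opposite to the enzymes. It ranged from -0.59 through -0.10 to 0.25 on GLU and from -0.32 through -0.09 to 0.21 on GLU+GAL. Its 3 highest mice, GLU 3, GLU+GAL 7 and GLU+GAL 8, were among the 6 lowest for the enzymes, while its lowest mouse, GLU 12, lay near the middle for them. All 16 negative pairs past the adjusted permutation threshold were pairs of Mylip, the strongest with Dhcr7 at r = -0.66 (rho = -0.63, adjusted permutation p = 0.0011) and -0.64, -0.69 and -0.82 within slides 1, 2 and 3. With the mean of the enzymes its r was -0.55. This pattern depended on the scaling: with arrays centred on their median in place of loess that r was -0.16 and 0 negative pairs passed, and with Agilent's processed signals it was -0.39 and 3 passed.

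The other genes of uptake and transport differed in how closely they followed the enzymes. Stard4, a carrier that moves cholesterol between membranes, had an r of 0.82 with their mean and with Sqle, its closest member. Tmem97, a sterol-responsive membrane protein that binds the lysosomal cholesterol exporter, had an r of 0.42, and 6 of its 26 pairs passed, the highest with Nsdhl (r = 0.53). Its r with the enzymes was 0.65 within GLU and 0.24 within GLU+GAL, a difference that was not tested, and 0.24 with Cy5 alone. Of the acetyl suppliers Acss2 had an r of 0.73 with the enzymes and was closest to Pmvk (0.88), and Aacs had 0.67 and was closest to Mvd (0.78).

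**Figure D4:**
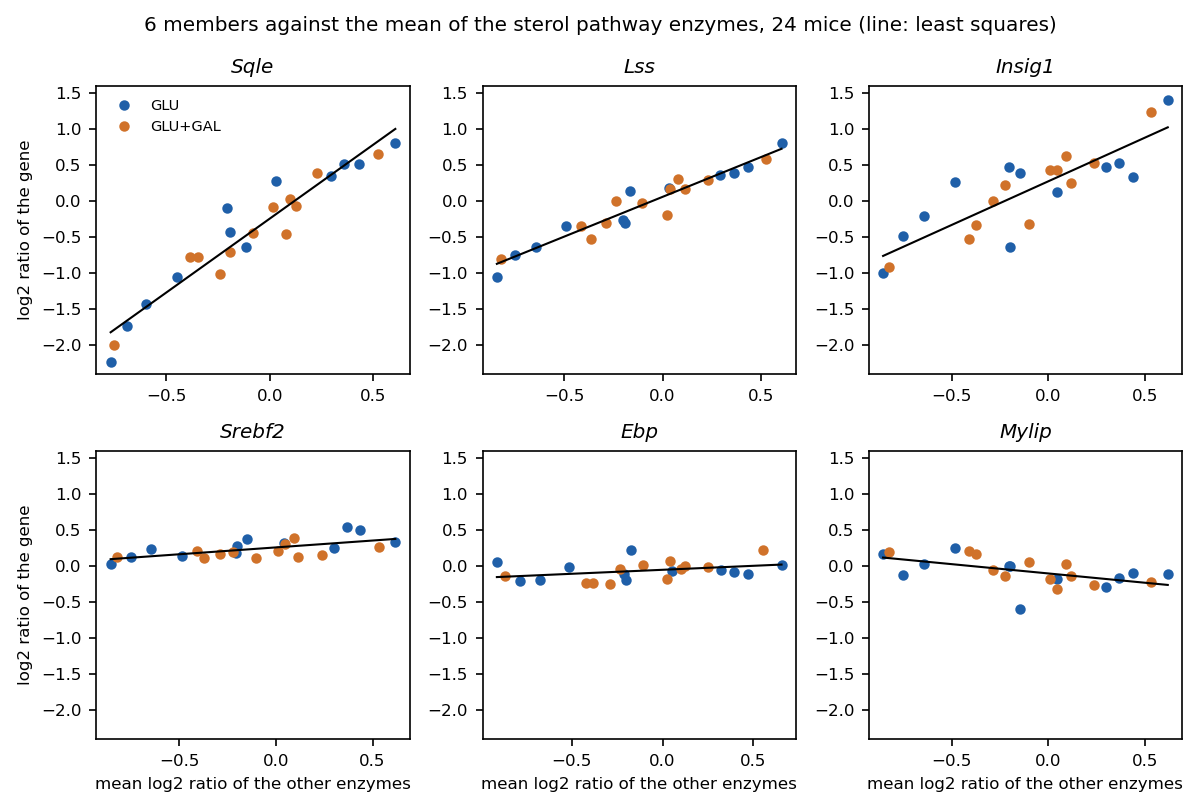
Log2 ratio of 6 genes (vertical axes, on 1 scale) against the mean log2 ratio of the other enzymes in the same mouse, 1 point per mouse coloured by diet, with a least-squares line. The slope is 2.05 for Sqle, 1.10 for Lss, 1.21 for Insig1, 0.19 for Srebf2, 0.11 for Ebp and -0.26 for Mylip, each over the mice of both diets.

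Ggps1, which extends farnesyl to geranylgeranyl diphosphate for protein prenylation and so leaves the sterol branch, followed no other member. It ranged from -1.13 through -0.37 to 0.11 on GLU and from -1.61 through -0.12 to 0.36 on GLU+GAL. Its r with the enzymes was -0.12 and 0 of its 26 pairs passed. Its probe is a caution: the 5 other Ggps1 probes correlated with it at r from -0.03 to 0.45 and had SDs of 0.14 to 0.19, against 0.47 for the probe used. For most other members with several probes the agreement was closer. The r was 0.88 to 0.99 for Pmvk, Fdft1, Lss, Cyp51, Tm7sf2, Msmo1, Insig2, Tmem97 and the brighter second probes of Hsd17b7 and Acss2, and 0.64 to 0.74 for Ebp, Srebf2, Mvk and Sc5d. Stard4 was lower, at 0.54. The dimmest probes of Hsd17b7 and Acss2, well above background on 11 and 10 arrays, had an r of 0.34 and 0.19. Hmgcs1, Sqle and Nsdhl had 2 probes each, but their second probe was not compared, so the spread of Sqle rests on 1 probe.

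The coordination was seen on each slide and diet to different degrees. The median r of the 351 pairs was 0.67 within GLU and 0.58 within GLU+GAL (12 mice each), and 0.65, 0.32 and 0.72 within slides 1, 2 and 3 (8 mice each). On slide 2 only 4 pairs passed the adjusted exact permutation threshold, against 127 and 149 on slides 1 and 3. Of the 136 enzyme pairs 116 had an r above 0 on slide 2, the lowest being -0.67, against 136 on slides 1 and 3. Ebp and Hsd17b7 had an r of -0.22 and -0.04 with the other enzymes on slide 2. With values centred within slide and diet the median r was 0.61 and 221 pairs passed. Within GLU and GLU+GAL the r with the mean of the enzymes was 0.13 and 0.71 for Ebp and -0.43 and -0.76 for Mylip, differences that were not tested.

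Between the diets no member passed any threshold. Of the 27, 0 had an unadjusted limma p under 0.05, against 4.30% of all genes (803 of 18653), and 0 passed the adjusted p of 0.05, as did 0 of all genes (0%). The adjusted p of limma was 0.999 for each member. The mean was higher on GLU+GAL in 16 members and lower in 11, beside 50.8% of all genes higher and 49.2% lower. The median difference was 0.01 over the members and 0.0013 over all genes, on the log2 scale as GLU+GAL minus GLU. Leaving out any 1 array put the members' median between -0.03 and 0.07 and the number with a higher mean between 8 (without GLU+GAL 12) and 22 (without GLU 8), so single mice turned its direction.

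Along the synthesis pathway the differences (± SE, n = 12 per diet) were small beside the spread between mice. In the mevalonate steps Hmgcs1 differed by 0.06 ± 0.21, Mvk by 0.10 ± 0.13, Pmvk by -0.05 ± 0.16 and Mvd by 0.07 ± 0.25. In the isoprenoid steps Idi1 differed by 0.15 ± 0.21, Fdps by 0.0031 ± 0.23 and Ggps1 by 0.10 ± 0.18. Of the 11 sterol enzymes 5 had a higher and 6 a lower mean on GLU+GAL.

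Nsdhl had the highest difference among the members, 0.17 ± 0.15, and Sc5d the lowest, -0.16 ± 0.13, neither past the limma threshold. Between them lay Msmo1 (0.14 ± 0.21), Cyp51 (0.10 ± 0.19), Lss (0.02 ± 0.18), Tm7sf2 (0.01 ± 0.08), Ebp (-0.0060 ± 0.06), Sqle (-0.0067 ± 0.32), Fdft1 (-0.0076 ± 0.15), Dhcr7 (-0.04 ± 0.20) and Hsd17b7 (-0.08 ± 0.15). What the data could show varied by gene. The 95% interval of the difference was -0.66 to 0.65 for Sqle and -0.12 to 0.11 for Ebp, so a change up to 1.57-fold higher in Sqle would lie within it.

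Of the regulators Srebf2 differed by -0.08 ± 0.05, Insig1 by 0.0014 ± 0.23, Insig2 by -0.05 ± 0.12 and Scap by -0.04 ± 0.07. In 10 of 12 GLU+GAL mice Srebf2 was under the mean of the GLU mice, with an unadjusted limma p of 0.150. The other Srebf2 probe differed by -0.03 ± 0.08 (unadjusted limma p = 0.735). In the uptake group Mylip differed by 0.04 ± 0.08 and Stard4 by 0.02 ± 0.09. Acss2 differed by 0.07 ± 0.25 and Aacs by -0.09 ± 0.24.

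Tmem97 came nearest to a difference. It ranged from -0.25 through 0.01 to 0.31 on GLU and from -0.15 through 0.21 to 0.55 on GLU+GAL, and 9 of 12 GLU+GAL mice were higher than the mean of the GLU mice while the groups overlapped. The difference was 0.15 ± 0.08 (unadjusted limma p = 0.0578, 95% interval -0.0053 to 0.31). Its 2 other probes gave 0.20 (unadjusted limma p = 0.00873) and 0.08 (p = 0.324), so whether it came under 0.05 depended on the probe. Within slides 1, 2 and 3 it was 0.23, 0.22 and -0.0043. With processed signals (0.22), Cy5 alone (0.17) and the authors' deposited values (0.20) the unadjusted limma p was 0.0078, 0.0255 and 0.0296, and no adjusted p passed. Leaving out 1 array gave 0.12 to 0.18 with an unadjusted limma p of 0.0188 (without GLU+GAL 3) to 0.117.

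**Figure D5:**
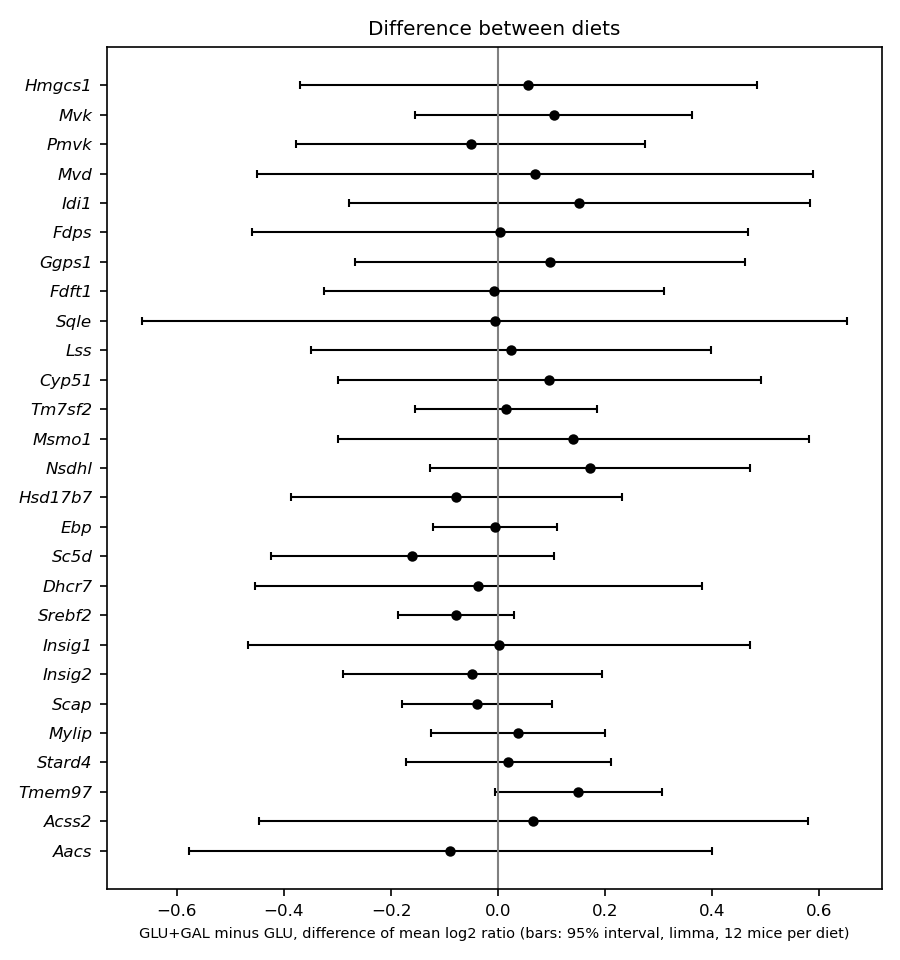
GLU+GAL minus GLU difference of mean log2 ratio for each of the 27 genes in pathway order, with 95% intervals from limma (12 mice per diet). All 27 intervals include 0, the widest being that of Sqle and the narrowest that of Srebf2.

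The slides did not give the same sign. The median difference over the members was 0.18 on slide 1, 0.21 on slide 2 and -0.31 on slide 3, where 2 of 27 members had a higher mean on GLU+GAL. Within a slide (4 mice a diet) 1 member reached an unadjusted limma p under 0.05 on slide 1, Ggps1 at 0.65, and 1 on slide 2, Nsdhl at 0.42, and none passed the adjusted threshold. The enzyme mean of the 4 GLU mice on slide 3 was 0.22 ± 0.49 (SD, n = 4), against -0.29 ± 0.51 and -0.30 ± 0.39 on slides 1 and 2. That slide held GLU 8, GLU 10 and GLU 4, 3 of the 5 highest mice. On GLU+GAL the means were -0.11 ± 0.48, -0.09 ± 0.21 and -0.10 ± 0.43. The part of single mice in these slide differences was not tested.

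Other genes of sterol handling, listed with earlier results known, gave few differences. Of 12 genes of SREBP processing and sterol-regulated degradation 2 were lower on GLU+GAL at an unadjusted limma p under 0.05 (2.66% of all genes were lower at that level) and 0 higher (1.65%). The larger of these differences was that of Erlin1, a membrane scaffold that binds SREBP-SCAP-INSIG complexes (-0.24 ± 0.07, p = 0.00188). Of 18 genes of sterol transport, esterification and LXR 2 were lower, the acyltransferase Soat1 (-0.19 ± 0.08, p = 0.0282) and the lysosomal carrier Npc2 (-0.11 ± 0.05, p = 0.0461). No gene of either list passed the adjusted threshold. Kupffer cell markers, which include genes that macrophages express, had a lower mean on GLU+GAL in 9 of 9, beside 49.2% of all genes. At an unadjusted limma p under 0.05 there were 5, beside 2.66% of all genes. The mean over the list per mouse was -0.18 to 0.77 on GLU and -0.60 to 0.31 on GLU+GAL. These markers moved together (median pairwise r = 0.84), so they are not 9 separate results. Hepatocyte markers, with a median pairwise r of 0.21, had a lower mean in 8 of 9, 4 of them at that p. Their list mean per mouse was 0.17 to 0.62 on GLU and 0.14 to 0.45 on GLU+GAL. The part of either list in these differences was not tested.

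Of 11 measured genes of the non-sterol isoprenoid branches 0 had an unadjusted limma p under 0.05, the largest differences being Rce1, a prenyl protein protease (-0.11 ± 0.05), and Trit1, a transfer RNA isopentenyltransferase (0.08 ± 0.06). Of 5 measured genes of sterol oxidation 0 did, with Cyp7a1, the rate-limiting enzyme of bile acid synthesis, at 0.26 ± 0.33 and Cyp7b1, an oxysterol hydroxylase, at 0.18 ± 0.13. Of 14 lipogenic genes known as SREBP1 targets 13 had a lower mean on GLU+GAL, beside 49.2% of all genes. These genes moved together (median pairwise r = 0.69), so they are not separate results. Of the 14, 1 passed that level, the fatty acid elongase Elovl5 (-0.25 ± 0.09, p = 0.00856). Of 10 fasting genes 0 did, with Fgf21, a hepatic fasting hormone, at -0.59 ± 0.32 and Pdk4, a kinase that inhibits pyruvate dehydrogenase, at -0.20 ± 0.28. Of 10 measured clock genes 0 did, with the clock output factor Dbp at 0.58 ± 0.47 and Per1 at 0.29 ± 0.28.

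Genes outside the list that followed the mean of the 17 enzymes most closely over 24 mice included Rdh11, a retinal reductase (r = 0.88), Pgd, which makes NADPH in the pentose phosphate pathway (0.87), Sgsm1 (0.85), Echdc1 (0.84), Fasn, fatty acid synthase (0.84), and Mid1ip1, an activator of acetyl-CoA carboxylase (0.81). Their Spearman's rho was 0.79 to 0.88. In all, 75 of 18626 genes outside the list had an r above 0.7 and 30 below -0.7.

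As a group the 14 lipogenic genes followed the enzymes, their mean having an r of 0.82 (rho = 0.82) with the enzyme mean and 0.75 without the 2 farthest mice. Fasn and Mid1ip1 led, with Acly, ATP citrate lyase, at 0.80 and Fads2, a fatty acid desaturase, at 0.78. Srebf1, which encodes the lipogenic SREBP1, had an r of 0.53. The mean of the 18 genes of sterol transport, esterification and LXR had an r of -0.40, and -0.28 without the 2 farthest mice. Its members went both ways. The oxysterol-binding protein Osbp had the r farthest from 0, at 0.59, while Scarb1, the receptor for high-density lipoprotein, had -0.51, and Abcg5 and Abcg8, which together pump sterol into bile, had -0.45 and -0.44. The exporters Abca1 and Abcg1 had -0.21 and -0.14. Other list means had an r of 0.58 for the isoprenoid branches, -0.48 for the clock and 0.03 for fasting. Without the 2 farthest mice these were 0.51, -0.33 and -0.04. Among clock genes Arntl, a core activator, had 0.65 and Dbp -0.59. The fasting genes also went both ways, with Cpt1a at -0.59 and Pdk4 at 0.39. These correlations share the arrays and the enzyme mean and are descriptions.

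Cell type markers and array quality were set beside the enzyme mean in the same way. The r was 0.10 for hepatocyte markers (0.36 without the 2 farthest mice), -0.09 for Kupffer cell markers (-0.12), -0.07 for stellate (-0.11) and -0.34 for endothelial (-0.19). It was 0.47 (0.39) for 3 detected bile duct markers, whose defining genes Epcam and Krt7 were well above background on 0 and 4 arrays. It was 0.34 (0.49) for 3 detected markers of adrenal and kidney, with Cyp11a1, Umod and Kap on 0 arrays. The share of spots well above background in Cy5 had an r of 0.05 with the enzyme mean and the SD of the array's log ratios -0.0069. The part of these measures in the spread between mice was not tested.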

How the data were processed

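Liver RNA of 24 mice was measured on 2-colour Agilent arrays, and the deposited files hold each spot's signal intensity and local background. The submitters' processing notes name Agilent Feature Extraction (version 10.7.3.1) as the software that made them. Cy5 held the mouse and Cy3 the pool, with no dye swap, so a dye effect is shared by both diets. The authors' deposited table holds log2 values that follow Cy5, with a scaling that is unknown here, and served as an alternative (29287 rows, correlation with its own array's Cy5 0.988 to 0.995).

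Here intensities were background-corrected (normexp, offset 50, which pulls dim probes towards 0) and loess-normalised within arrays with limma 3.58.1 in R 4.3.3. The brightest probe stood for a gene, and genes well above background in Cy5 on at least 6 arrays of a diet were kept. Diets were compared with lmFit and eBayes, GLU+GAL minus GLU, with Benjamini-Hochberg adjustment over 18653 genes. Pairs of members were tested by permutation in NumPy 2.4.6 (exact within slides), adjusted over 351 pairs, with ranks for Spearman's rho from SciPy 1.17.1. The SD between mice is pooled within diets. The 2-sided tests were checked on simulated normal values without slide effects. Limma recovered 29 of 50 log2 changes of 0.3 and 49 of 50 of 0.6, with 11 false among 188 calls. The changed genes were drawn from all genes, whose median SD (0.17) was below that of the members (0.42). Recovery for the members was therefore not measured.

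Labels number the mice within each diet without naming litters, and 12 mice a diet limit the precision. Genes named outside the members were those past an unadjusted p of 0.05 in a list, otherwise the 2 with the largest differences, and the 8 most like the enzyme mean, and some genes so named are not reported here. Correlations of single listed genes with the enzyme mean were picked after their values were seen. Members and lists were chosen with earlier results of these data known. Alternatives covered background, normalisation, channel, probe, filter, slide, replicate number, variance model and each array left out.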

Additional observations from a re-analysis of the deposited data

How the results depend on the processing

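With Agilent's processed signals, Cy5 alone and the deposited table, 1 member in place of 0 had an unadjusted limma p under 0.05, Tmem97 each time. Within slides 1 and 2 the number was 1 as well, Ggps1 and Nsdhl. Leaving out 1 array gave 0 to 1, and it was Tmem97 without GLU 4, 8 or 9 or GLU+GAL 1, 2 or 3. No alternative brought a member past the adjusted threshold. Over all genes the number past it went from 0 to 1 without GLU 3 and was 0 to 1 over the arrays left out. The 803 genes at an unadjusted limma p under 0.05 became 379 with median centring, 1242 without a filter (more genes tested), 1212 with array weights, and 1270 and 1632 within slides 1 and 2. Other causes were not tested.

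The 232 correlated pairs became 127, 4 and 149 within slides 1, 2 and 3, with 8 mice each in place of 24. The median r of 0.58 was 0.32 on slide 2, 0.72 on slide 3 and 0.67 within GLU. Leaving out 1 array kept the pairs between 216 and 238 and the median between 0.55 and 0.62.

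With the replicate number as a block, 0 members and 1123 genes had an unadjusted limma p under 0.05 and 0 genes passed the adjusted one. Same-numbered mice of the 2 diets deviated together (r over 0.1) in 8 of 12 pairs, with a lowest r of -0.38, and 6 of 24 mice correlated best with their own number. In 6 of the 12 pairs both mice also lay on 1 slide. Since not every pair was over 0.1 and the labels name no litter, the numbers were not taken as pairs.

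The sign of the diet difference turned in 3 to 6 of 27 members with processed signals, median centring, Cy5 alone or the deposited table, and in 7, 7 and 14 within slides 1, 2 and 3. With processed signals all genes shifted by 0.04 (median), and 792 were higher against 184 lower at the unadjusted p, in place of 307 against 496, while the deposited table gave 474 against 303.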
